A study of Nicotiana benthamiana with 9 samples.

Results

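Small RNA coverage of a green fluorescent protein (GFP) transgene was compared between 3 libraries made after siR386 and 3 made after siR164, out of 9 libraries in all. siR386 and siR164 are synthetic 22-nt small interfering RNAs (siRNAs), named here by the position at which their site on the transgene begins. All libraries came from Nicotiana benthamiana line 16C, which carries the transgene, and each held 3 leaves pooled into 1 tube, from which silenced areas were taken 6 days after high-pressure spraying of small RNA at 140 ng/µl. The groups shared line, dose, time and siRNA length and differed in the siRNA applied, and leaves without an siRNA were not analysed here. The libraries were chosen by their titles, replicates 4 to 6 for siR386 and 1 to 3 for siR164. Libraries of the third siRNA, siR739, entered the estimate of the spread, the filter on windows and the choice of positions left out. A few of their values are given beside the results. Of the deposited GFP contig, 719 positions were used, and the 3 stretches at the siRNA sites where coverage had been set to 0 were left out in every library. Positions are counted from 1 at the 5' end of that contig, and the place of the transgene among the plant chromosomes was not analysed here.

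In plants, an siRNA loaded into an Argonaute protein cuts a matching transcript. An RNA-dependent RNA polymerase can then copy the transcript into double-stranded RNA, which Dicer-like enzymes cut into secondary siRNAs. When these arise outside the site of the first siRNA the process is called transitive silencing, and siRNAs of 22 nt are known as efficient triggers of it. The 16C line, in which GFP is expressed from a transgene, is widely used to follow it because silenced leaf areas lose their green fluorescence under ultraviolet light.

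Coverage here is the number of reads over a position, with reads of every length and from both strands counted together, and it was not scaled to library size. Its sum over the positions used was 22767, 40510 and 19347 in siR386 replicates 4, 5 and 6, against 123564, 37219 and 53991 in siR164 replicates 1, 2 and 3. Divided by 22, the length of the siRNA, that is about 879 to 1841 reads per siR386 library and 1692 to 5617 reads per siR164 library. The siR386 sheets are spelled siR364, and the sample titles were followed. A library of each group had reads at or beside the site of the other siRNA. In siR386 replicate 6, coverage over the 22 positions of the siR164 site, which ends at 185, was between 21 and 48 reads, where the other 5 libraries were at 0. In siR164 replicate 1, coverage was 637 reads at position 408 and 605 at the next, just past the 22-nt siR386 site and not within it, where the other 5 libraries were at 0. These positions were left out of all results, and values without either library are given where they change a result. Zeros there had been set, over a length that differed between libraries, and do not show that reads were absent. The labels do not say whether the 3 libraries of a group come from different plants, so a p-value here measures the spread between tubes, which may be technical.

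At the positions used beside the left-out stretches, coverage differed between the groups. At position 410, the first one 3' of the stretch left out around the siR386 site, siR386 replicates 4, 5 and 6 had 88, 201 and 134 reads, against 182, 90 and 72 reads in siR164 replicates 1, 2 and 3. Relative to the mean coverage of its library, position 410 stood at 2.78, 3.57 and 4.98 times the mean in the siR386 libraries, against 1.06, 1.74 and 0.959 times in the siR164 libraries, and the groups did not overlap. Between positions 410 and 411, 79.1% ± 7.97 of the coverage was lost in siR386 libraries, against 29.1% ± 13.1 in siR164 libraries (SD, n = 3 each). The difference was 50.03 percentage points (exact two-sided permutation p = 0.1, which is the smallest that 3 against 3 libraries can give). One position further, at 411, the ratio to the library mean was 0.729 ± 0.12 in siR386 libraries and 0.855 ± 0.14 in siR164 libraries (SD, n = 3 each), so the excess ended within 1 nt. On the 5' side, coverage at the last position before the siR386 site stepped up from its neighbour by 11, 9 and 20 reads in siR386 replicates 4 to 6, against steps of −17, 4 and −2 reads in siR164 replicates 1 to 3.

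The siR164 site showed the mirror of this. At the last position before that site, coverage changed from its neighbour by −1, 0 and 0 reads in siR386 replicates 4 to 6, against rises of 14, 43 and 11 reads in siR164 replicates 1 to 3. From the first to the second position past the stretch left out there, siR386 libraries lost 0% of a coverage of 2 to 4 reads, against 20.7%, 28.8% and 28.2% of 29, 52 and 39 reads in siR164 replicates 1 to 3. At the positions used, each site was edged by extra reads in the libraries labelled with its siRNA. At positions left out, some libraries had reads beside or over the other site. These were siR164 replicate 1 and siR386 replicate 6, described above, and siR386 replicate 4, with 25 and 16 reads at positions 186 and 187. All 3 siR164 libraries were at 0 there, a value that had been set and cannot be compared. The edges are therefore a partial check of the labels and not a measure of secondary siRNAs, and these single positions were chosen after their values were seen.

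**Figure D1:**
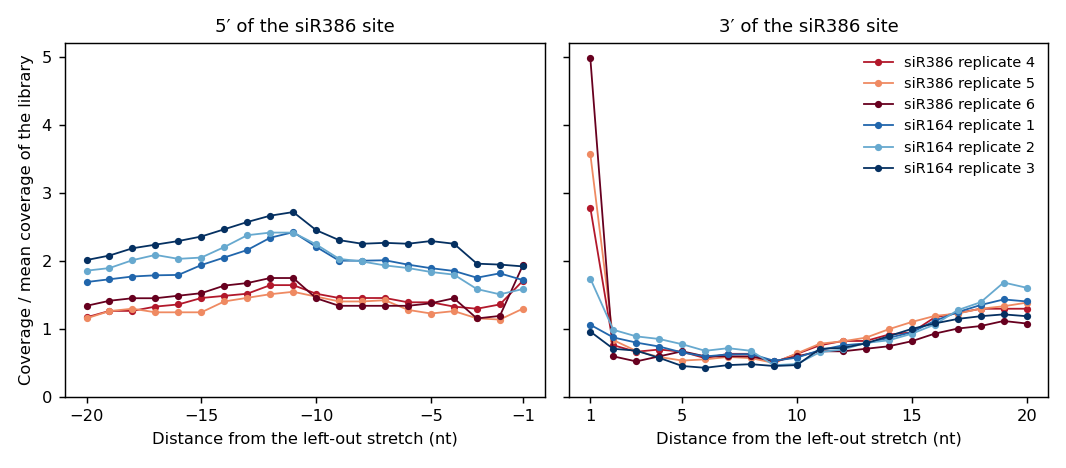
Coverage of each library divided by its own mean coverage (y axis) over the 20 positions on each side of the stretch left out around the siR386 site (x axis, distance in nt); red lines are the 3 siR386 libraries and blue lines the 3 siR164 libraries. The siR386 libraries stand at 2.78 to 4.98 times their mean at the first position 3' of the site and at 0.595 to 0.834 times at the next, and 5' of the site they run below the siR164 libraries until the last position.

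The level of transgene small RNA was compared next, since the study asked how the applied siRNA affects the efficiency of transitive silencing. Mean coverage was 31.7, 56.3 and 26.9 reads per position in siR386 replicates 4, 5 and 6, against 172, 51.8 and 75.1 reads in siR164 replicates 1, 2 and 3. The siR386 libraries averaged 0.385 times the siR164 libraries, but siR386 replicate 5 lay above siR164 replicate 2, so the groups overlapped. On log2(coverage + 1) the difference was −1.24 (SE 0.60) and did not pass the test (exact two-sided permutation p = 0.2). It was −0.76 without siR164 replicate 1, the library with the highest coverage. In the authors' deposited table, which is normalized and pools the libraries of a group, the sum over its 772 positions was 35407 for siR386 and 77881 for siR164, a ratio of 0.455. Silenced areas alone were collected, and in such pooled tissue a smaller number of silenced cells and less small RNA per cell cannot be told apart, nor, in the raw coverage, can the depth of sequencing.

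The ratio of raw coverage between the groups was uneven along the transgene. Over the 197 positions used between the siR164 and siR386 sites, mean raw coverage was 19.8, 30.6 and 15.6 reads in siR386 replicates 4, 5 and 6, against 160, 44.8 and 70.9 reads in siR164 replicates 1, 2 and 3. There all siR386 libraries lay below all siR164 libraries, and the ratio of group means was 0.240. Over the 329 positions between the siR386 and siR739 sites, mean raw coverage was 55.0, 102 and 47.5 reads in siR386 libraries, against 273, 83.8 and 119 reads in siR164 libraries. In that stretch the groups overlapped, and the ratio was 0.429. Over the 30 positions after the siR739 site, the ratio was 0.645, with 13.8, 20.9 and 15.5 reads in siR386 libraries against 45.7, 11.2 and 20.9 reads in siR164 libraries. Before the siR164 site mean coverage was at most 5.67 reads per position in any of the 6 libraries, and the ratio there, 0.584, rests on few reads.

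The contrast between the stretches does not depend on the depth of a library, because it can be taken within each one. The log2 ratio of mean coverage between the siR386 and siR739 sites to that between the siR164 and siR386 sites was 1.47, 1.73 and 1.60 in siR386 replicates 4, 5 and 6, against 0.77, 0.91 and 0.75 in siR164 replicates 1, 2 and 3. The groups did not overlap, and the difference was 0.79 (SE 0.090, exact two-sided permutation p = 0.1, the smallest possible). Close to the siR386 site the same held. The log2 ratio of coverage in the 100 positions 3' of the site to that in the 100 positions 5' of it was 0.48, 0.81 and 0.61 in siR386 libraries, against −0.0088, 0.16 and −0.042 in siR164 libraries. The means were 0.63 ± 0.17 in siR386 libraries and 0.036 ± 0.11 in siR164 libraries (SD, n = 3 each), a difference of 0.60 (SE 0.11, exact two-sided permutation p = 0.1). The ratio itself depended on the width of the flanks, at 0.21 in siR386 libraries and −0.37 in siR164 libraries with 50 positions, and at 1.10 in siR386 libraries and 0.48 in siR164 libraries with 150. The difference between the groups was 0.59 and 0.62 at these widths. In siR739 replicates 7, 8 and 9 the ratio with 100 positions was 0.82, 0.95 and 0.40. The log2 ratio between the 2 stretches was 1.84, 1.97 and 1.38 there, on about 593, 296 and 389 reads per library. A rise across the siR386 site was thus not particular to siR386 libraries.

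By windows of 25 nt, the ratio of group mean coverage was between 0.182 and 0.265 in the 9 windows from 176 to 400 and between 0.339 and 0.496 in the 14 windows from 401 to 750. The lowest, 0.182, was in window 176–200, which includes the edge of the siR164 site. It was 0.633 in window 751–775 and 0.673 in the last window of the contig. At the siR386 site the ratio was 0.265 in window 376–400, which holds the 10 positions before the site, and 0.465 in window 401–425, which holds the 16 positions after it. Those 16 include position 410, at 141 reads on average in siR386 libraries and 115 in siR164 libraries, so part of this step is the edge of the site. The next window, 426–450, had a ratio of 0.371. With 10 further positions left out beside each site, the log2 difference in share of window 401–425 was 0.032, against 0.25 with them. All 9 windows from 176 to 400 had raw coverage in every siR386 library below every siR164 library, as had 1 of the other 23, window 151–175. Such windows made up 31.2% of the 32, and 0% lay wholly above. By position, siR386 libraries lay wholly below at 185 of the 197 positions between the siR164 and siR386 sites and at 27 of the 329 positions between the siR386 and siR739 sites (29.9% over all 719 positions).

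**Figure D2:**
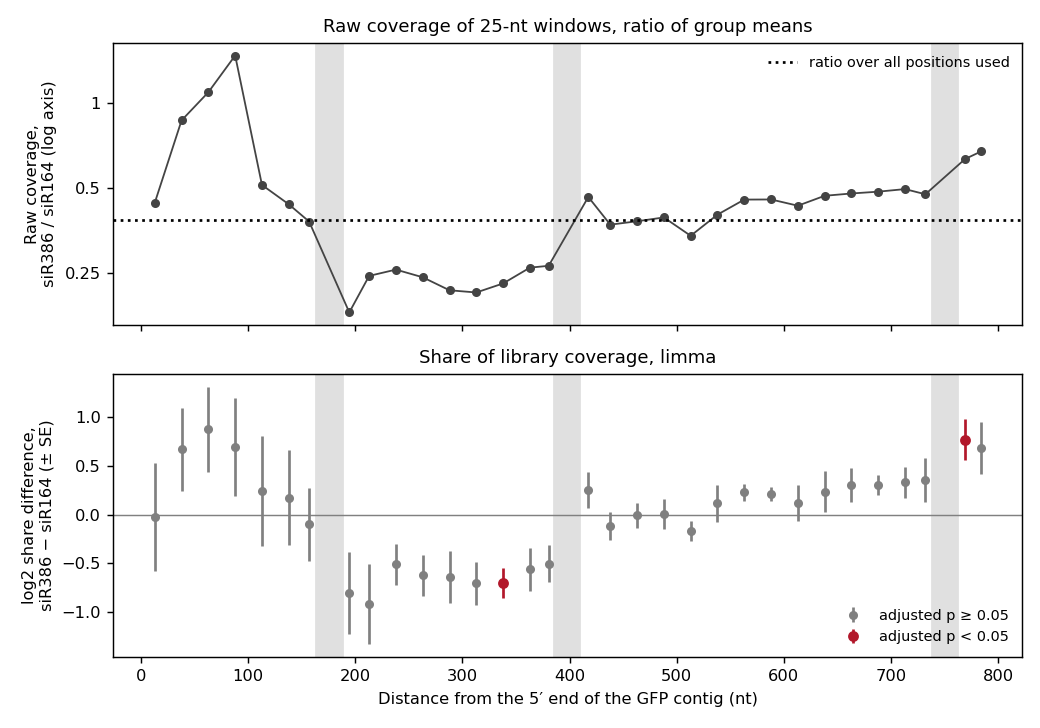
Upper panel: ratio of mean raw coverage in siR386 over siR164 libraries (y axis, log scale) for each 25-nt window along the contig (x axis, nt), with the ratio over all positions used (0.385) as a dotted line. Lower panel: log2 difference in share of library coverage, siR386 minus siR164, with its standard error from limma; red points passed an adjusted p of 0.05, and grey bands are the stretches left out. The ratio lies at 0.182 to 0.265 between the first and the second site and steps up at the second, the siR386 site.

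The shape of the profile was compared as the share of each library's total, which takes out the level. Between the siR164 and siR386 sites lay 17.2%, 14.9% and 15.9% of coverage in siR386 replicates 4, 5 and 6, against 25.5%, 23.7% and 25.9% in siR164 replicates 1, 2 and 3. The means were 16.0% ± 1.14 in siR386 libraries and 25.02% ± 1.17 in siR164 libraries (SD, n = 3 each), a difference of −9.03 percentage points (SE 0.94). Between the siR386 and siR739 sites lay 79.5%, 82.5% and 80.7% in siR386 libraries, against 72.6%, 74.1% and 72.5% in siR164 libraries, a difference of 7.82 points (SE 1.02). After the siR739 site lay 1.82%, 1.55% and 2.40% in siR386 libraries, against 1.11%, 0.903% and 1.16% in siR164 libraries, a difference of 0.86 points (SE 0.26). With 10 further positions left out beside each site, that last difference was 0.357 points, at 0.781% in siR386 libraries and 0.424% in siR164 libraries. In these 3 stretches the groups did not overlap (exact two-sided permutation p = 0.1 each, adjusted p = 0.133 over 4 stretches). Before the siR164 site the shares of 1.18% ± 0.31 in siR386 libraries and 0.826% ± 0.44 in siR164 libraries overlapped (SD, n = 3 each, exact p = 0.4, adjusted p = 0.4). Because the 4 shares sum to 100% in each library, they are not separate measurements.

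**Figure D3:**
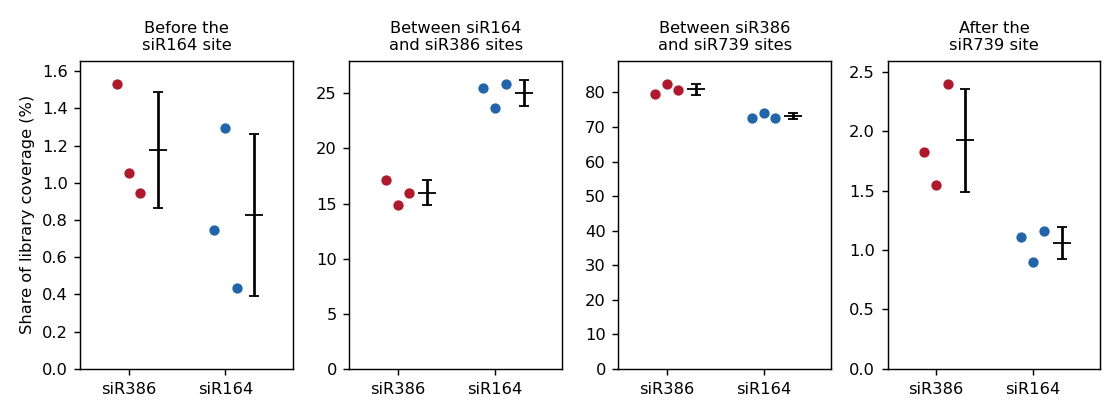
Share of library coverage (y axis, percent) in the 4 stretches between the siRNA sites, 1 panel each with its own scale; points are single libraries, and the bar beside them is the mean with its SD (n = 3). The siR386 libraries lie between 14.9% and 17.2% in the second panel, below the siR164 libraries at 23.7% to 25.9%, and above them in the third and the fourth.

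Measured without windows or stretches, the coverage of siR386 libraries lay further towards the 3' end. Counted from the 5' end, 50% of coverage was reached at positions 560, 560 and 562 in siR386 replicates 4, 5 and 6, against 517, 524 and 518 in siR164 replicates 1, 2 and 3, a difference of 41 nt (SE 2.29). The siR739 replicates 7, 8 and 9 reached 50% at positions 572, 557 and 557. A share of 25% was reached at 452 ± 5.57 in siR386 libraries and 390 ± 17.0 in siR164 libraries (SD, n = 3 each). A share of 75% was reached at positions 631, 634 and 634 in siR386 libraries, while all 3 siR164 libraries reached it at position 591. The mean position weighted by coverage was 533 ± 3.90 in siR386 libraries and 505 ± 1.39 in siR164 libraries (SD, n = 3 each). None of the 4 measures overlapped between the groups (exact two-sided permutation p = 0.1, adjusted p = 0.1 over the 4). The cumulative curves were furthest apart at position 524, where 41.7% of coverage had been passed in siR386 libraries and 51.4% in siR164 libraries.

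**Figure D4:**
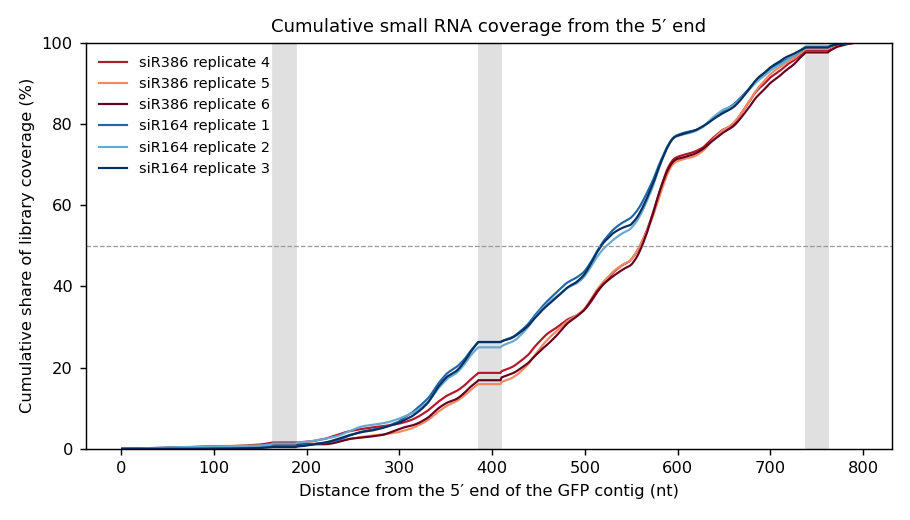
Cumulative share of library coverage (y axis, percent) from the 5' end of the contig (x axis, nt) for the 3 siR386 libraries in red and the 3 siR164 libraries in blue; the dashed line marks 50%, and grey bands are the stretches left out. The siR386 curves cross the line at 560 to 562 nt and the siR164 curves at 517 to 524 nt, and the gap opens in the stretch before the siR386 site.

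Of 32 windows tested for their share, limma called 2, which is 6.25%, with a fit over all 9 libraries. Window 326–350, 5' of the siR386 site, held 4.32%, 4.12% and 4.31% in siR386 replicates 4, 5 and 6, against 7.11%, 6.43% and 7.41% in siR164 replicates 1, 2 and 3. It fell by 0.70 on the log2 scale after siR386 (SE 0.15, limma adjusted p = 0.00839). Window 751–775, of which the 13 positions after the siR739 site were used, held 1.34%, 1.07% and 1.58% in siR386 libraries, against 0.791%, 0.578% and 0.841% in siR164 libraries. It rose by 0.77 (SE 0.21, limma adjusted p = 0.0311). At an unadjusted p under 0.05 there were 13 windows. Without siR164 replicate 1, limma called 0 windows (7 at an unadjusted p under 0.05), with log2 differences of −0.69 for window 326–350 (adjusted p = 0.0672) and 0.82 for window 751–775 (adjusted p = 0.0808). With 10 further positions left out beside each site, window 751–775 had a log2 difference of 0.41 and was not called (limma adjusted p = 0.237), nor was it after each library's mean over positions 1 to 100 had been subtracted (0.79, limma adjusted p = 0.0586). Without siR164 replicate 2 or siR386 replicate 6, window 751–775 was not called (limma adjusted p = 0.105 and 0.0843), and without siR386 replicate 4 limma called 6 windows.

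The count rested on which libraries set the spread. With the 6 siR386 and siR164 libraries alone in the fit, limma called 12 of 31 windows, which is 38.7%. The 6 lower ones all lay between the siR164 and siR386 sites, in windows 226–250, 251–275, 301–325, 326–350, 351–375 and 376–400. The 6 higher ones all lay 3' of the siR386 site, in windows 551–575, 576–600, 651–675, 676–700, 701–725 and 751–775. In that fit window 326–350 had an adjusted p of 1.43e-05 and window 301–325, at 2.17% ± 0.18 in siR386 libraries and 3.64% ± 0.67 in siR164 libraries (SD, n = 3 each), one of 0.00132 (limma). The siR739 libraries, which the fit over 9 libraries includes, held between 296 and 593 reads at 22 nt per read. The spread they add was not tested apart from their other differences.

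Among the windows with the largest log2 differences that limma did not call in the fit over 9 libraries, 201–225 had 1.12%, 0.397% and 0.145% in siR386 replicates 4, 5 and 6, against 0.728%, 0.978% and 1.02% in siR164 replicates 1, 2 and 3. Its difference was −0.92 (SE 0.41, limma adjusted p = 0.0967), and siR386 replicate 4 lay above the siR164 libraries while the other siR386 libraries lay below them. That window was at −1.52 without siR386 replicate 4, where limma called it (adjusted p = 0.0107), and at −0.36 without siR386 replicate 6 (limma adjusted p = 0.394). Window 176–200, which begins 3' of the siR164 site, had 0.148% ± 0.055 in siR386 libraries and 0.337% ± 0.12 in siR164 libraries (SD, n = 3 each), a difference of −0.80 (SE 0.42, limma adjusted p = 0.144). Window 51–75 had a difference of 0.88 (SE 0.43, limma adjusted p = 0.129) on a raw coverage of at most 4.76 reads in any library. It was 0.52 without siR164 replicate 3, 2.0 with a pseudocount of 0.01 and 0.30 with one of 0.5. The windows with the highest shares were shared by the groups. Windows 551–575 and 576–600 held 12.7% ± 1.02 and 12.4% ± 0.17 in siR386 libraries, against 10.8% ± 0.67 and 10.7% ± 0.52 in siR164 libraries (SD, n = 3 each). Window 501–525 came next in both, at 7.44% ± 0.28 in siR386 libraries and 8.37% ± 0.59 in siR164 libraries, ahead of windows 676–700 and 651–675 after siR386 and of windows 326–350 and 426–450 after siR164. Counted without a test, 8 windows lay wholly lower in siR386 libraries, which is 25%, and 9 wholly higher, which is 28.1%.

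By single position the same division was visible. The share of every siR386 library lay below that of every siR164 library at 131 positions (18.2% of 719) and above it at 137 (19.1%). Of the 131 lower positions, 122 were among the 197 between the siR164 and siR386 sites. The longest unbroken run of lower positions reached from 300 to 384, over 85 nt up to the siR386 site, and held 11.9% of coverage in siR386 libraries against 18.8% in siR164 libraries, a ratio of 0.633. Of the 137 higher positions, 100 lay among the 329 between the siR386 and siR739 sites and 29 among the 30 after the siR739 site. The longest run of higher positions, 28 nt from 688 to 715, held 5.68% in siR386 libraries against 4.57% in siR164 libraries. Neighbouring positions share reads, so these counts describe the profile and are not independent calls.

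**Figure D5:**
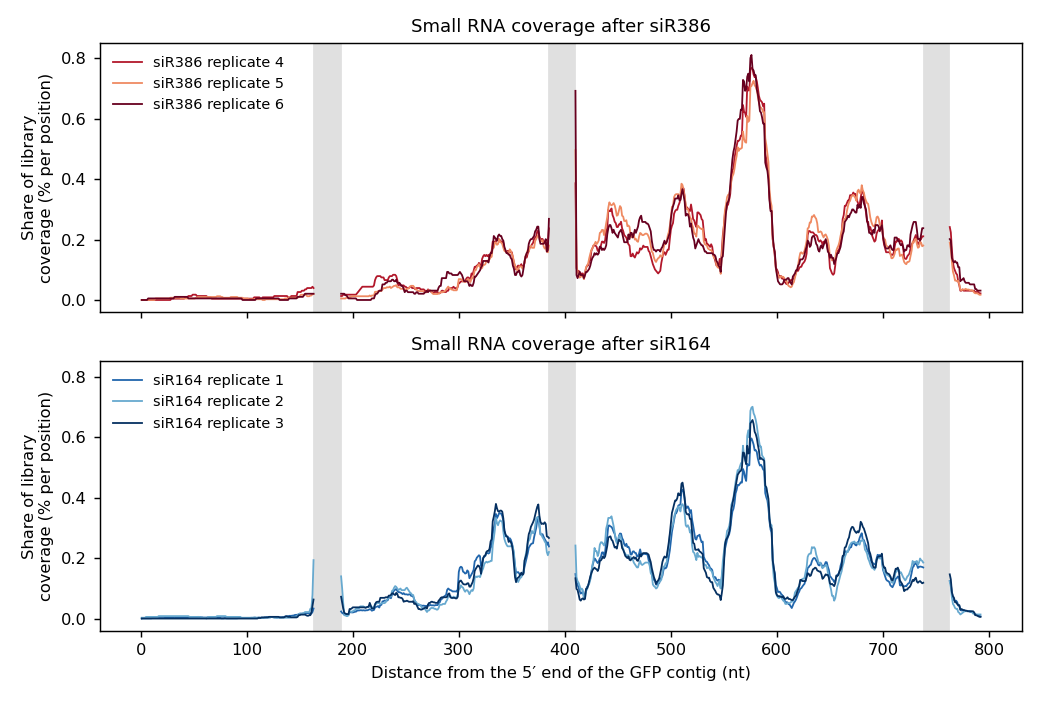
Share of library coverage per position (y axis, percent) along the contig (x axis, nt) for the 3 siR386 libraries (upper panel) and the 3 siR164 libraries (lower panel); grey bands are the stretches left out. Both groups have their highest peak at 576 to 578 nt, while the peaks near 335 and 375 nt reach about 0.195% and 0.229% after siR386 against 0.353% and 0.350% after siR164.

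The highest peak lay at the same place in both groups. The most covered position was 576, 578 and 576 in siR386 replicates 4, 5 and 6, against 576, 577 and 577 in siR164 replicates 1, 2 and 3. At position 576 the share was 0.763% ± 0.052 in siR386 libraries and 0.649% ± 0.051 in siR164 libraries (SD, n = 3 each), on 206 ± 70.4 reads after siR386 and 450 ± 253 reads after siR164. The other 4 of the 5 highest positions at least 22 positions apart were 410, 511, 680 and 554 after siR386, and 511, 335, 375 and 442 after siR164. Of these, 511 was common to both lists. Position 554 is no peak of its own. From 553 to 555 the share rose from 0.324% to 0.340% in siR386 libraries and from 0.273% to 0.291% in siR164 libraries, on the way to the main peak. Position 410 is the edge of the siR386 site, which is not a measure of secondary siRNAs. At position 335, the share was 0.195% ± 0.0059 in siR386 libraries and 0.353% ± 0.024 in siR164 libraries, and at position 375 it was 0.229% ± 0.014 in siR386 libraries and 0.350% ± 0.024 in siR164 libraries (SD, n = 3 each). At position 680 the order was the other way round, with 0.360% ± 0.020 in siR386 libraries and 0.285% ± 0.029 in siR164 libraries. The steepest rises in coverage from one position to the next also coincided. Those at 575, 572 and 568, which build the main peak, were the 3 steepest in both groups, and the drops at 589, 593 and 596, on its 3' side, were among the 5 steepest in both. Over the 719 positions, Pearson's r between profiles was 0.971 to 0.984 within siR386, 0.978 to 0.985 within siR164 and 0.916 to 0.958 between the groups. This is a description, as neighbouring positions share reads and are not replicates.

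The call of window 326–350 did not hold within its stretch. When each window was taken as a share of its own stretch, limma called 0 of 32 windows (0%), and 2 had an unadjusted p under 0.05. The log2 difference of window 326–350 was then −0.066 (SE 0.12, limma adjusted p = 0.908) and that of window 751–775 was 0.0046 (SE 0.088, limma adjusted p = 0.981). The stretch after the siR739 site holds 2 windows, and 751–775 makes up most of it in both groups. Its share of that stretch can hardly move, so this scaling cannot decide whether its call held. This scaling was added after the data were seen. Of the positions between the siR164 and siR386 sites, 6 of 197 lay wholly lower and 9 wholly higher in siR386 libraries on this scale (5.84% and 5.98% over all 719 positions). There, r between libraries of different groups averaged 0.960, against 0.963 within groups, and the middle of the coverage lay at 335, 339 and 337 in siR386 replicates 4 to 6 and at 335, 337 and 337 in siR164 replicates 1 to 3. Between the siR386 and siR739 sites a shift remained: the middle lay at 574, 574 and 573 in siR386 libraries, against 566, 569 and 569 in siR164 libraries, without overlap (exact two-sided permutation p = 0.1). In that stretch 34 of 329 positions lay wholly lower and 15 wholly higher, and r averaged 0.944 between groups and 0.966 within them, against 0.938 between groups over the whole contig. Before the siR164 site, where coverage was lowest, 1.23% of positions lay wholly lower and 11.7% wholly higher, and r averaged 0.618 between groups and 0.726 within them. The middle of the coverage there was at 100 ± 26.0 in siR386 libraries and 138 ± 15.04 in siR164 libraries (SD, n = 3 each, exact two-sided permutation p = 0.2). After the siR739 site, 0 of 30 positions lay wholly lower or higher.

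The authors' deposited table, made from the sum of 21-, 22- and 24-nt reads, is not coverage position by position. Its columns followed the coverage of the libraries best when moved 3' by 15 nt for siR386 (r = 0.895) and 14 nt for siR164 (r = 0.904), against 0.559 for siR386 and 0.565 for siR164 without a move. When each column of the authors' deposited table was summed over every run of 21 positions, as values at read starts would add up to coverage, r was 0.986 for siR386 and 0.989 for siR164 with a move of 5 nt. The table may thus hold read starts, though values at read starts would by themselves need no move, and its labels do not say so. Single windows were not compared with it. In the sums so made from the authors' deposited table, 14.97% of siR386 and 23.97% of siR164 lay between the siR164 and siR386 sites. Between the siR386 and siR739 sites the sums from the authors' deposited table held 83.1% for siR386 and 74.5% for siR164, and after the siR739 site 1.34% for siR386 and 0.980% for siR164. Without summing or a move, the columns held 16.3% for siR386 and 25.4% for siR164 between the siR164 and siR386 sites. They held 82.3% for siR386 and 73.0% for siR164 in the next stretch. After the siR739 site they held 0.265% for siR386 and 0.272% for siR164, so no rise was seen there. These shares have no replicate error and come from reads of the same libraries, and the summing was chosen after the data were seen.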

How the data were processed

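The deposited values are read coverage, a signal in whole numbers per interval of a 792-nt GFP contig, per the file headers, and a pooled table of normalized signal, on an unstated scale. Per the submitters' processing notes Bowtie2 was used, with settings, trimming and contig sequence not given in the sources. Intervals counted from 0 were rewritten from 1. Left out were 164 to 188, 386 to 409 and 739 to 762, each site as far as at least 3 libraries stayed at 0, which leaves the stretches 1 to 163, 189 to 385, 410 to 738 and 763 to 792. The libraries, stretches and tests were chosen with earlier results of these data known.

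Values of single libraries were compared with exact two-sided permutation tests over all 20 assignments of 3 against 3 libraries (difference of means, smallest p 0.1), with Benjamini-Hochberg adjustment over the 4 stretches and the 4 position measures. The share of 25-nt windows was tested over all 9 libraries by limma 3.58.1 in R 4.3.3 (trended empirical Bayes) on log2(percent share + 0.1), so folds of low shares are understated, at a mean coverage of at least 1, and called at an adjusted p under 0.05. The script was tested on simulated data. Named windows were those called, the 5 with the largest differences, the 5 highest shares of each group and those beside the siR164 and siR386 sites. Precision is limited by 879 to 5617 reads per library, from coverage divided by 22, and replicate SDs carry it. Alternatives were other pseudocounts, widths, filters, scalings and positions left out, and each library left out in turn.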

Additional observations from a re-analysis of the deposited data

Results flagged for a closer look

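Coverage above the 3 reads that a count of 0 allows stood at positions left out of the comparisons in 4 of the 6 libraries. In siR386 replicate 6 it reached 48 reads in the stretch around the siR164 site, with 33 reads at position 185 and 7 at position 186. In siR386 replicate 4 it reached 25 reads and in siR386 replicate 5 it reached 5 reads, both from position 186 or later, past the 22-nt siR164 site itself. In siR164 replicate 1 it reached 40 reads at the last position left out beside its own site and 637 reads at position 408, past the siR386 site, with 605 at the next and 182 at 410. The 637 reads at position 408 were also above the 295 reads at the last position before the siR386 site. The part that these reads play in the other results was not tested.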

How the results depend on the processing

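No paired analysis was possible because the siR386 and siR164 libraries share no replicate numbers. The 7 results tested with exact permutations kept their direction under each alternative run. The share between the siR164 and siR386 sites differed by −9.70 to −8.48 points, that after the siR739 site by 0.357 to 1.05 points, the median position by 37.3 to 43.2 nt and the level by −1.62 to −0.76. The share before the siR164 site came close to 0, at 0.0063 points after subtracting each library's mean over positions 1 to 100. The number of windows called by limma was 2. It was 1 with 10 further positions left out beside each site and 1 after that subtraction, neither of them window 751–775, 12 with 6 libraries in the fit, 6 with a pseudocount of 0.5, 9 of 75 with windows of 10 nt (12%), 5 of 16 with windows of 50 nt, 6 with median-of-ratios scaling and 0 with the share of the own stretch. Without single libraries it ran between 0 and 6, and window 151–175 between −0.38 and 0.18. The cause was not tested, beyond the fewer libraries or positions that these alternatives hold. Window 151–175, at −0.099, turned to 0.18, 0.064 and 0.013 without siR164 replicate 2, siR386 replicate 5 and siR386 replicate 6, and to 0.098 with 10 further positions left out. Window 376–400, at −0.50, turned to 0.12 as a share of its own stretch. The few reads limit windows before position 200 most.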
